A study of Mus musculus with 6 samples.

Results

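The insulin-like growth factor (IGF) axis was described here through 10 genes, chosen by name: the ligand gene Igf1, the receptor genes Igf1r and Ghr, 6 binding protein genes (Igfbp2, Igfbp3, Igfbp4, Igfbp5, Igfbp6 and Igfbp7) and the adaptor gene Irs1. All 10 were found among the 44556 genes of the count tables, and all 10 passed the filter on low counts, which left 15600 genes to be tested. The data were bulk RNA-seq counts from parietal bone, a plate of the skull vault, of newborn C57BL/6 mice. There were 3 libraries labelled OsxCre and 3 labelled OsxCre;Stat3fl/fl, from littermates. Mice of both groups carried the OsxCre transgene, in which the Osterix promoter drives Cre in osteoblast precursors, so the groups differed in the floxed Stat3 alleles. STAT3 is a transcription factor activated by cytokine receptors, and the comparison asked how its deletion in pre-osteoblasts altered transcripts of the bone, here those of the IGF axis.

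IGF1 is a secreted growth factor that osteoblasts and many other cells make, and growth hormone, acting through its receptor GHR, stimulates its production. IGF1 and the related ligand IGF2 bind the receptor IGF1R, which signals through adaptors such as IRS1 to the PI3K and AKT kinases. The binding proteins hold IGFs in the blood and matrix and can limit or prolong their access to the receptor, and proteases that cut them release the ligand. IGFBP7 is a related protein that binds IGFs weakly. In bone, the axis is known for promoting the growth and matrix production of osteoblasts.

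The counts on genes summed to between 8193651 and 12080044 per library, so that 3 counts, taken as the floor, corresponded to between 0.248 and 0.366 CPM (counts scaled to the library total). CPM values below use totals adjusted by edgeR's TMM factors. Floors cover counting error only. Stat3 itself had 150, 135 and 141 CPM in the OsxCre libraries and 153, 155 and 155 CPM in the OsxCre;Stat3fl/fl libraries, and edgeR's quasi-likelihood test put its log2 fold change (OsxCre;Stat3fl/fl over OsxCre) at 0.12 with a standard error (SE) of 0.07 and an adjusted p of 0.442. The count of the whole gene thus did not show the deletion, and OsxCre;Stat3fl/fl below means libraries with that label. Only some exons of Stat3 are floxed, and counts per exon were not available. The paper reports the deletion by western blot of STAT3 protein in cultured marrow mesenchymal stem cells of older OsxCre;Stat3fl/fl mice. Xist had between 7333 and 12392 counts in each library and Ddx3y and Kdm5d had 0, whereas the study describes the newborns as male. The tissue label was checked against markers. All 8 osteoblast markers were measured (summed level 26219 to 34695 CPM in the OsxCre libraries and 23576 to 29789 CPM in the others), led by Col1a2, a chain of type I collagen. Skeletal muscle markers were abundant too (33431 to 36131 CPM, and 38240 to 57163 CPM), led by the actin gene Acta1, so each library held RNA of more than bone.

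The 10 genes lie on 6 chromosomes. Positions are those of RefSeq on GRCm38.p6, the build that the submitters' processing notes name. Igfbp2 (chr1:72824480-72852474, plus strand) and Igfbp5 (chr1:72858065-72874865, minus strand) are neighbours, with 5590 bases between their ends. Irs1 is farther along the same chromosome (chr1:82233105-82291439, minus strand). Igfbp4 (chr11:99040005-99052655, plus strand) is on the chromosome of Stat3 (chr11:100886806-100939594, minus strand), and so is Igfbp3 (chr11:7206086-7215498, minus strand). Ghr (chr15:3317755-3583352, minus strand) and Igfbp6 (chr15:102144186-102149512, plus strand) share chromosome 15. Igf1 (chr10:87858265-87937047, plus strand), Igf1r (chr7:67952257-68233668, plus strand) and Igfbp7 (chr5:77349240-77408045, minus strand) are on others. Igfbp7 overlaps the end of the polymerase gene Polr2b over 89 bases, and Igf1 overlaps the antisense gene Igf1os over 5129 bases. RefSeq also places noncoding RNA genes within or across Igf1r (Gm51488 and Gm51487, over 2319 and 15813 bases), Ghr (Gm41254, over 67868 bases) and Igfbp7 (Gm34648, over 7185 bases). Of these overlapping genes, Polr2b was found by symbol in the count tables used here. These sizes are overlaps of whole gene spans, introns included (the exons of Ghr total 9053 bases), and overlap of exons was not computed. The library kit does not mark strand, so reads from exon bases that genes share cannot be told apart by strand.

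The 250 bases before a transcription start were read for each gene from RefSeq promoter windows (12 windows, since Ghr and Igfbp2 have a pair each). For Igf1, Igfbp3 and Igfbp4, that start lies inside the gene span given above, and the bases before the outermost start were not searched. The windows were searched on both strands for TTCNNNGAA, the spacing most STAT proteins bind, for TTCNNGAA, a shorter spacing, for GGGCGG, the GC box, and for TATAAA, the TATA box. TTCNNNGAA was in 0 of the 12 windows, and in 7.02% of all 32851 mouse windows. TTCNNGAA was in 1 of the 12, a Ghr window, and in 7.17% of all. GGGCGG was in 5 of the 12 (Ghr, Igf1r, Igfbp2, Igfbp7 and Irs1) and in 32.7% of all, and TATAAA was in 3 of the 12 (Ghr, Igfbp4 and Igfbp6) and in 12.4% of all. For Ghr and Igfbp6, the TATAAA match is on the opposite strand and reads TTTATA on the gene's strand. Windows differed in base composition: GC content was 77.6% for Igf1r and 73.2% for Igfbp3 but 52.8% for Igf1 and 49.6% for Igfbp6, against a median of 52.4% over all windows. Such matches are a description of letters, and binding was not measured.
A few windows are shown, 5′ to 3′ on the gene's strand and ending at the base before the start, with motif matches in capitals. They are the window with the STAT-type match, that of the steadiest binding protein gene, and those of the 2 binding protein genes with the smallest p values.
Ghr (chr15:3581843-3582092, TATAAA from position -188 and TTCNNGAA from position -38, counted from -1 at the base before the start): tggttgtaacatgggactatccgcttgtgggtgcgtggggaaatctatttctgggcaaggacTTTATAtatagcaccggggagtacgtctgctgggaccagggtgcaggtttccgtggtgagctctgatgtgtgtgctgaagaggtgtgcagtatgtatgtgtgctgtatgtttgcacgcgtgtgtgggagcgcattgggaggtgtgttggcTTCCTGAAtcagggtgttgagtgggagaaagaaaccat
Igfbp4 (chr11:99040994-99041243, TATAAA from position -28): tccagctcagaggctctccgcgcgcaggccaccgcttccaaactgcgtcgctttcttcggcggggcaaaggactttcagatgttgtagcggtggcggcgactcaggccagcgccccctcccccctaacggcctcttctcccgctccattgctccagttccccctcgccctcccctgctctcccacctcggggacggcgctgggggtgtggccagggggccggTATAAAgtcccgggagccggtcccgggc
Igfbp3 (chr11:7213924-7214173, no match): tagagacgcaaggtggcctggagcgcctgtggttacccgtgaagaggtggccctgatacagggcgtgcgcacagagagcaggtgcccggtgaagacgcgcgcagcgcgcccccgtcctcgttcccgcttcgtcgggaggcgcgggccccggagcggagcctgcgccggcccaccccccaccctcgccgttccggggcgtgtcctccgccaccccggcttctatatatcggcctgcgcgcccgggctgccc
Igfbp6 (chr15:102143936-102144185, TATAAA from position -148): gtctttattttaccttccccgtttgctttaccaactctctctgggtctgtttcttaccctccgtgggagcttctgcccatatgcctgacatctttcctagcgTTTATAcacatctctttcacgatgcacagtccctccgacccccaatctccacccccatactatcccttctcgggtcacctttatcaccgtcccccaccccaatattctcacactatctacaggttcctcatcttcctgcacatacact

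None of the 10 genes passed an adjusted p of 0.05 in edgeR's quasi-likelihood test, against 1.26% of all 15600 genes (0.481% lower and 0.776% higher in the libraries labelled OsxCre;Stat3fl/fl, that is 75 and 121 genes). At an unadjusted p of 0.05, 3 of the 10 passed (Igf1r, Igfbp3 and Igfbp6), all with higher values, against 8.03% of all genes in that direction and 16.4% in either. DESeq2's Wald test gave 0 of the 10 past the adjusted threshold and 2 past the unadjusted one, and limma-voom gave 0 and 3. The values of the 2 genotypes did not overlap for 2 of the 10 genes (Igf1r and Irs1, both higher), against 10.8% of all genes in that direction and 23% in either. Fold changes were below 0 for 4 genes and above 0 for 6, with a median log2 fold change of 0.10 beside -0.00 for all genes tested. In a bulk sample, fewer cells of a type and less RNA per cell cannot be told apart.

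**Figure D1:**
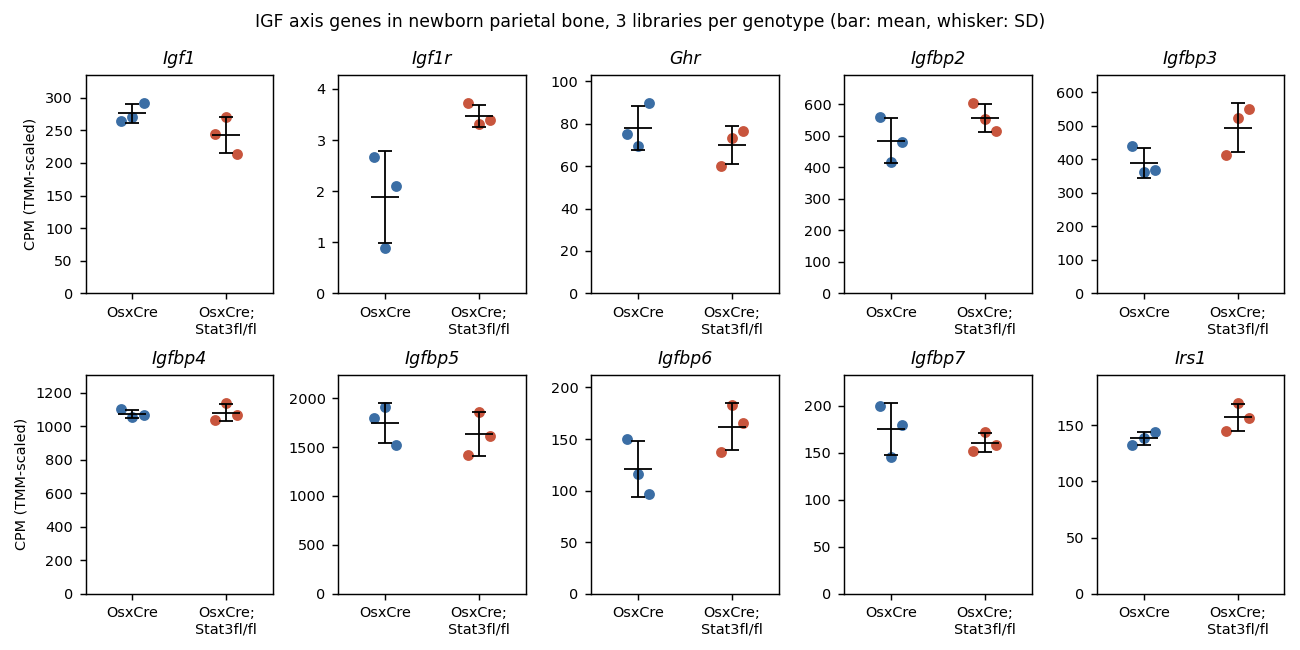
TMM-scaled CPM (vertical axes, each from 0) of the 10 genes in each library, with OsxCre in blue and OsxCre;Stat3fl/fl in red; bars are means and whiskers are SD of 3 libraries. The genotypes do not overlap for Igf1r and Irs1 and overlap for the other 8 genes.

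The 6 binding protein genes had the highest levels of the 10 genes, and the genotypes overlapped for each of the 6. Levels of different genes were compared as CPM per kb of exon, with exon lengths from GENCODE on the NCBIM37 build. By this scale, Igfbp4 came first with a mean level of 456 ± 14.9 CPM per kb (SD, n = 6 libraries), and its range did not overlap with that of the next gene. Igfbp2 and Igfbp5 followed with mean levels of 282 ± 35.9 and 281 ± 33.3 CPM per kb, which did not differ beyond their spread on this scale. Divided by the longest transcript instead, Igfbp2 had a level of 399 CPM per kb and Igfbp5 remained at 281, so the tie depends on the length used. Igfbp3 (141 ± 25.2), Igfbp7 (138 ± 16.6) and Igfbp6 (127 ± 28.4 CPM per kb) formed a lower group with overlapping ranges. Igf1 (26.2 ± 2.69), Irs1 (16.1 ± 1.46), Ghr (8.17 ± 1.08) and Igf1r (0.599 ± 0.235 CPM per kb) came after them, in steps that did not overlap. By the longest transcript, the mean level of Ghr (17.7 CPM per kb) came above that of Irs1 (16.1 CPM per kb). On that scale the ranges of these 2 genes overlap, so their separation depends on the length used. Igf2, the ligand most abundant before birth, had a level of 1734 ± 118 CPM per kb.

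**Figure D2:**
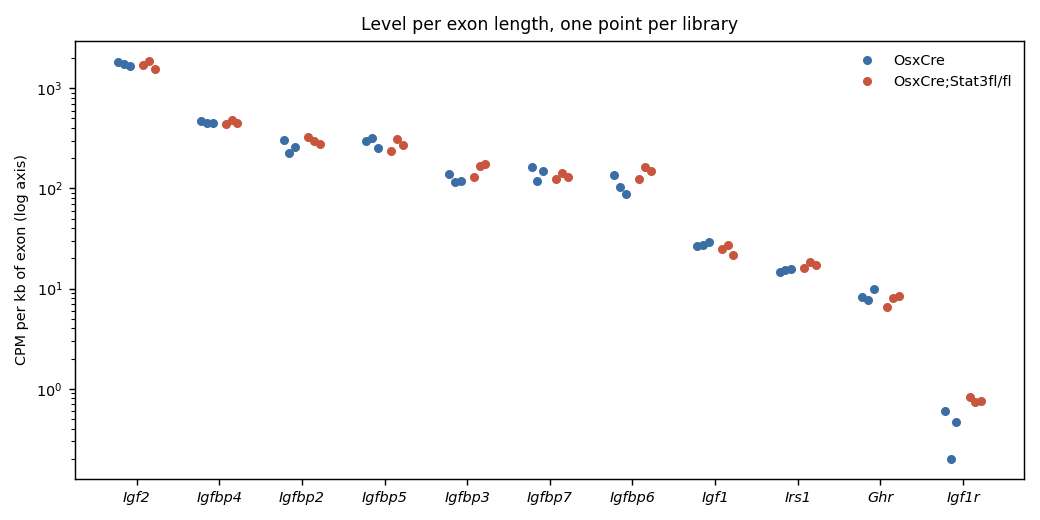
Level per exon length in CPM per kb (vertical log axis) for Igf2 and the 10 genes, one point per library, OsxCre in blue and OsxCre;Stat3fl/fl in red. Igf2 is highest, the 6 binding protein genes lie between 87.1 and 481 CPM per kb, and Igf1r is lowest.

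Igfbp3, which encodes the main carrier of IGFs in blood, had 440, 361 and 367 CPM in the OsxCre libraries and 412, 522 and 550 CPM in the OsxCre;Stat3fl/fl libraries. Libraries 2 and 3 of the second group were above all OsxCre libraries, while library 1 was below OsxCre library 1, so the groups overlapped. For Igfbp3, edgeR's test put the log2 fold change at 0.34 (SE 0.13, 95% interval 0.03 to 0.65, adjusted p = 0.259). Its unadjusted p rose above 0.05 on leaving out OsxCre library 2 or 3, or OsxCre;Stat3fl/fl library 2 or 3, where the log2 fold change was between 0.26 and 0.31.

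Igfbp6, whose product binds IGF2 in preference to IGF1, had 150, 116 and 96.8 CPM in the OsxCre libraries and 138, 183 and 165 CPM in the OsxCre;Stat3fl/fl libraries. OsxCre library 1 was above OsxCre;Stat3fl/fl library 1, and the groups overlapped. Igfbp6 differed by a log2 fold change of 0.42 (SE 0.17, 95% interval 0.03 to 0.81, adjusted p = 0.272 by edgeR's test). As for Igfbp3, leaving out any one of OsxCre libraries 2 and 3 or OsxCre;Stat3fl/fl libraries 2 and 3 took the unadjusted p above 0.05, and the log2 fold change was then between 0.28 and 0.40. The summed level of 7 suture mesenchyme and fibroblast markers, led by the collagen gene Col3a1, was 8694, 7153 and 6864 CPM in the OsxCre libraries and 7194, 9625 and 8353 CPM in the others. This sum was highest and lowest in the same libraries as Igfbp6, a likeness noticed after the values were seen. Col3a1 alone had 8308, 6815 and 6532 CPM in the OsxCre libraries and 6892, 9242 and 8013 CPM in the others. It thus made up most of the sum. Of the 7 markers, 3 had lower and 4 higher values, beside 50.7% of all genes lower. At an unadjusted p of 0.05, 1 was lower (Twist1) and 1 higher (Pdgfra), beside 8.34% and 8.03% of all genes. At an adjusted p of 0.05, 0 of the 7 markers passed, beside 1.26% of all genes. Their part in the Igfbp6 values was not tested.

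Igfbp2, which is abundant in fetal tissues, had 559, 417 and 479 CPM in the OsxCre libraries and 604, 552 and 516 CPM in the OsxCre;Stat3fl/fl libraries. OsxCre library 1 lay within the range of the second group. For Igfbp2 the log2 fold change came to 0.20 (SE 0.12, 95% interval -0.09 to 0.49, adjusted p = 0.472 by edgeR's test). Its neighbour Igfbp5, a binding protein that is retained in bone matrix, had 1803, 1913 and 1521 CPM against 1418, 1863 and 1615 CPM. The groups overlapped, and Igfbp5 had a fitted log2 fold change of -0.10 (SE 0.14, 95% interval -0.42 to 0.22, adjusted p = 0.788 by edgeR's test).

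Igfbp4, which is best known for inhibiting IGF action until a protease cuts it, was the steadiest of the 10 genes. Its levels were 1101, 1054 and 1070 CPM in the OsxCre libraries and 1040, 1137 and 1066 CPM in the OsxCre;Stat3fl/fl libraries, with coefficients of variation of 2.24% and 4.63%. Between genotypes, the log2 fold change of Igfbp4 was 0.01 (SE 0.09, 95% interval -0.19 to 0.21, adjusted p = 0.978 by edgeR's test), and its sign turned with the scaling and with single libraries. Igfbp7 had 200, 145 and 179 CPM against 152, 172 and 158 CPM, all of the second group within the range of the first. The fitted difference of Igfbp7 was -0.12 on the log2 scale (SE 0.12, 95% interval -0.40 to 0.16, adjusted p = 0.671 by edgeR's test).

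The ligand gene Igf1 had 265, 271 and 292 CPM in the OsxCre libraries and 245, 270 and 214 CPM in the OsxCre;Stat3fl/fl libraries. Library 2 of the second group lay just below OsxCre library 2, and the other 2 were below all OsxCre libraries. Igf1 thus had a log2 fold change of -0.18 (SE 0.10, 95% interval -0.41 to 0.05, adjusted p = 0.417 by edgeR's test). The lower bound of the interval corresponds to 0.75 of the OsxCre level. Igf2 had 10020, 9644 and 9069 CPM against 9472, 10373 and 8569 CPM, and edgeR's test gave it a log2 fold change of -0.02 (SE 0.12) at an adjusted p of 0.970.

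The growth hormone receptor gene Ghr had 75.0, 69.3 and 89.7 CPM in the OsxCre libraries and 59.9, 73.2 and 76.7 CPM in the OsxCre;Stat3fl/fl libraries. One library of the second group was below all others, and the rest overlapped with the first. Ghr differed by -0.16 on the log2 scale (SE 0.13, 95% interval -0.45 to 0.14, adjusted p = 0.594 by edgeR's test). Of the other growth hormone axis genes, Cish and Socs2, feedback inhibitors induced by growth hormone through STAT5, had log2 fold changes of -0.44 and 0.14 (adjusted p = 0.529 for each by edgeR's test).

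Igf1r, the receptor for IGF1 and IGF2, had the fewest counts of the 10 genes: 28, 9 and 25 in the OsxCre libraries and 31, 27 and 29 in the OsxCre;Stat3fl/fl libraries. Scaled by depth, these were 2.66, 0.892 and 2.10 CPM against 3.72, 3.31 and 3.39 CPM. All 3 libraries of the second group were above all of the first, and OsxCre library 2 was the lowest. With edgeR's test, the log2 fold change of Igf1r was 0.87 (SE 0.37, 95% interval 0.01 to 1.73, adjusted p = 0.299). Without OsxCre library 2 it was 0.54 (adjusted p = 0.483 by edgeR's test), and the unadjusted p was below 0.05 in 1 of the 6 fits that left out a library. Mtor, a kinase gene that most cells express, also had a low level per length (0.891 ± 0.273 CPM per kb, SD, n = 6 libraries). The insulin receptor gene Insr had a level of 10.4 ± 0.630 CPM per kb, and Igf2r, which clears IGF2, had 34.8 ± 3.28 CPM per kb. How the counting treated the genes with low counts is not given in the sources used here.

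The adaptor gene Irs1 had 132, 139 and 144 CPM in the OsxCre libraries and 145, 169 and 156 CPM in the OsxCre;Stat3fl/fl libraries. The groups did not overlap, but the highest OsxCre value and the lowest of the others lay close together. For Irs1, edgeR's test gave a log2 fold change of 0.18 (SE 0.08, 95% interval -0.00 to 0.37, adjusted p = 0.312).

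**Figure D3:**
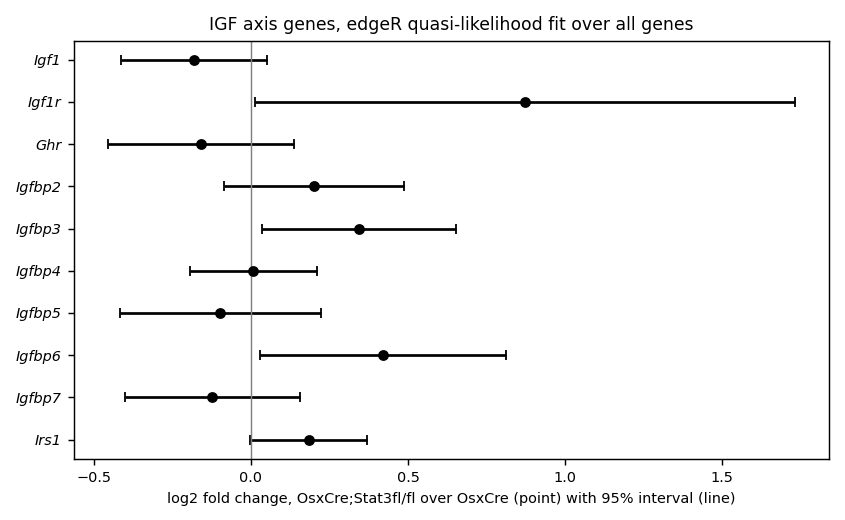
Log2 fold change of OsxCre;Stat3fl/fl over OsxCre (horizontal axis) for the 10 genes from edgeR's fit; points are estimates and lines are 95% intervals. The intervals of Igf1r, Igfbp3 and Igfbp6 lie above 0, that of Igf1r is the widest (0.01 to 1.73), and the other 7 include 0.

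Beyond the 10 genes, 53 others of the IGF, insulin and growth hormone pathways were listed, of which 45 passed the filter. Of these 45, 1 passed an adjusted p of 0.05, against 1.26% of all genes tested. At an unadjusted p of 0.05, 2 lower and 7 higher genes passed, against 8.34% and 8.03% of all genes tested. The median log2 fold change of the 45 was 0.03. The gene that passed the adjusted threshold was Foxo3, a transcription factor that AKT keeps out of the nucleus. It rose from 74.0, 73.2 and 67.3 CPM in the OsxCre libraries to 96.8, 118 and 118 CPM in the OsxCre;Stat3fl/fl libraries, with no overlap. Foxo3 differed by 0.63 on the log2 scale (SE 0.10, adjusted p = 0.0285 by edgeR's test). The adjusted p stayed below 0.05 without OsxCre;Stat3fl/fl library 1 (0.0258), and was 0.101, 0.0958 and 0.0848 without OsxCre libraries 1, 2 and 3, and 0.0757 and 0.136 without OsxCre;Stat3fl/fl libraries 2 and 3.

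In the list of proteases that cut binding proteins, and their inhibitors, 6 of 7 genes were tested and 2 passed the unadjusted threshold, both higher, beside 8.03% of all genes in that direction. Pappa, a protease of IGFBP4 and IGFBP5, had 7.42, 7.24 and 7.55 CPM against 9.37, 9.44 and 14.4 CPM (log2 fold change 0.58, SE 0.20, adjusted p = 0.214 by edgeR's test). Adamts1, a secreted metalloprotease, had 52.1, 46.7 and 54.1 CPM against 61.5, 83.1 and 71.2 CPM (log2 fold change 0.50, SE 0.12, adjusted p = 0.103 by edgeR's test). The genotypes did not overlap for either gene, as for 10.8% of all genes in that direction.

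Of the 8 receptor adaptor genes tested, 1 passed the unadjusted threshold, which 16.4% of all genes passed. It was Gab1, a docking protein for PI3K (log2 fold change 0.21, adjusted p = 0.231 by edgeR's test). Irs4, an adaptor with few counts here, differed by 0.95 on the log2 scale (SE 0.55, adjusted p = 0.442 by edgeR's test). All 21 genes of the PI3K, AKT and mTOR list were tested, and 6 had lower and 15 higher values, beside 50.7% of all genes lower. At an unadjusted p of 0.05, 2 were lower and 4 higher, beside 8.34% and 8.03% of all genes. The higher ones were Foxo3 and, named after their values were seen, the kinase gene Pdpk1, the FoxO factor gene Foxo1 and the PI3K regulatory subunit gene Pik3r1 (log2 fold changes 0.34, 0.27 and 0.25, adjusted p = 0.175, 0.257 and 0.273 by edgeR's test). The lower ones were Akt2, an AKT kinase, and Pik3r2, another regulatory subunit of PI3K, also named after their values were seen (log2 fold changes -0.37 and -0.18, adjusted p = 0.183 and 0.269 by edgeR's test). The receptor genes Igf2r and Insr had log2 fold changes of 0.08 and 0.03 (adjusted p = 0.785 and 0.918 by edgeR's test). Of the remaining binding protein genes, Igfals, the acid-labile subunit of the circulating IGF complex, differed by -0.40 on the log2 scale (adjusted p = 0.672 by edgeR's test) on 9 to 25 counts. Igfbpl1 had 7.33, 20.9 and 1.01 CPM against 8.65, 0.490 and 2.92 CPM, a spread within each genotype wider than the difference between them. Tubb3, the leading gene of the neural and glial markers, varied as widely (32.0, 153 and 24.4 CPM against 115, 9.93 and 76.5 CPM), and its part in the Igfbpl1 values was not tested. Ins1 and Ghrhr had 0 counts in all 6 libraries, and Igfbp1 had at most 3 counts in a library.

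**Figure D4:**
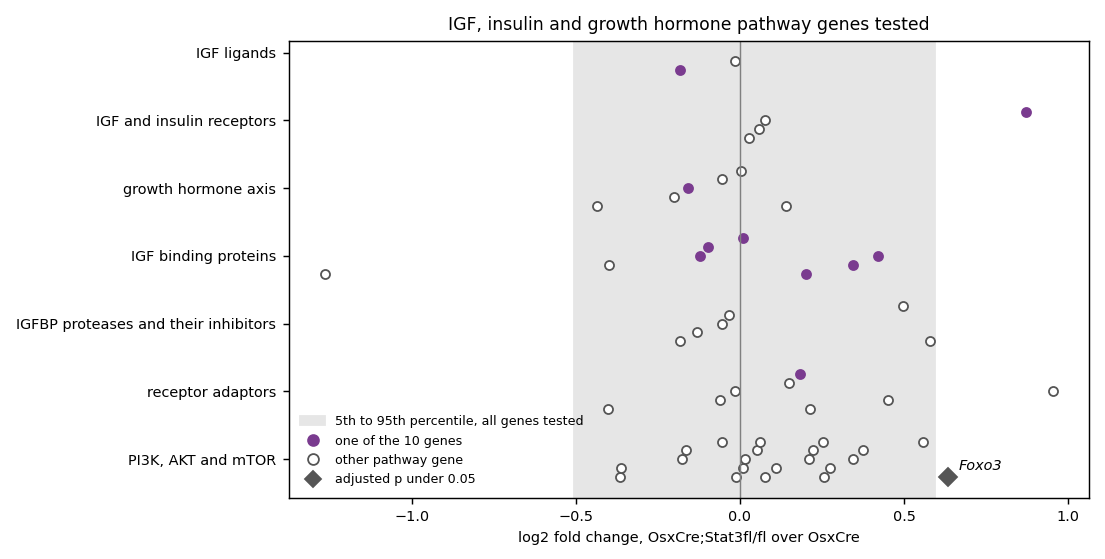
Log2 fold change of OsxCre;Stat3fl/fl over OsxCre (horizontal axis) for each pathway gene tested, by list; filled purple points are the 10 genes, open points the others, the diamond a gene with an adjusted p under 0.05 and the grey band the 5th to 95th percentile of all 15600 genes (-0.51 to 0.59). Foxo3 is the diamond, and Igf1r is the one of the 10 genes outside the band.

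Some markers of bone and of other cell types differed between genotypes. Of 12 skeletal muscle markers, 7 were higher and 1 lower at an unadjusted p of 0.05, beside 8.03% and 8.34% of all genes. The embryonic myosin gene Myh3 (log2 fold change 1.71) rose and the fast myosin gene Myh4 (-3.61) fell at an adjusted one (adjusted p = 0.0204 and 3.9e-05 by edgeR's test). Over all genes, 0.776% were higher and 0.481% lower at that adjusted threshold. Of 8 osteoblast markers, 6 had lower and 2 higher values, beside 50.7% of all genes lower. At an unadjusted p of 0.05, 2 of the 8 were lower and 0 higher, beside 8.34% and 8.03% of all genes. The matrix protein gene Ibsp fell at an adjusted p of 0.0213 (edgeR's test). Of all genes, 0.481% were lower at an adjusted p of 0.05. Of 4 neutrophil markers tested, 3 had lower values and 1 a higher value, beside 50.7% of all genes lower. The 3 were lower at an unadjusted p of 0.05, beside 8.34% of all genes. Of them, S100a9 passed the adjusted threshold (adjusted p = 0.0423 by edgeR's test), as did 0.481% of all genes in that direction. All 5 erythroid markers, led by Hba-a1, had lower values, beside 50.7% of all genes. Of the 5, 2 were lower at an unadjusted p of 0.05, beside 8.34% of all genes. The part of these cell types in the values of the IGF axis genes was not tested.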

How the data were processed

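RNA was extracted with Trizol from parietal bone of newborn OsxCre mice and OsxCre;Stat3fl/fl littermates, and libraries were made with a TruSeq RNA kit (3 libraries per genotype). The labels describe polyA RNA, and the paper's methods state that total RNA was isolated, without naming a selection step. The authors deposited whole-number counts per gene symbol, without normalization. The submitters' processing notes name HISAT2 and GRCm38, whereas the paper's methods describe TopHat and mm9 with FPKM values. The counting program and annotation are not given in the sources used here. No source ties libraries to separate litters, so p-values measure the spread between these libraries.

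The test was that of edgeR 4.0.16 in R 4.3.3 (filterByExpr with minimum count 10 and minimum total count 15, TMM scaling, factors 0.932 to 1.04, quasi-likelihood test, two-sided, Benjamini-Hochberg adjustment over 15600 genes). The SE was the size of the log2 fold change divided by the square root of F. Alternatives used limma 3.58.1 and DESeq2 1.42.0, other scalings and filters, the replicate number as a block, and leaving out each library. Libraries of one genotype were not duplicates (chi-square per degree of freedom 7.51 to 15.6). Exon lengths came from GENCODE vM1 on NCBIM37, and positions and promoter windows from RefSeq on GRCm38.p6. Plots used matplotlib 3.10.9 and pandas 2.3.3 under Python 3.11.15.

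The 10 genes, 7 pathway lists and 15 marker lists were chosen with earlier results of these data known. The genes named were the 10 genes, Stat3, Igf2, genes of a pathway list past an adjusted p of 0.05 or otherwise the 2 others with the smallest p, and the leading and called genes of the marker lists described; other genes named were chosen after their values were seen. A list gene may be counted without being reported here by name. Marker lists not described above had 0 genes past an adjusted p of 0.05.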

Additional observations from a re-analysis of the deposited data

How the results depend on the processing

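In 15 alternatives, 0 of the 10 genes passed an adjusted p of 0.05, the lowest being 0.145 (Igfbp3, DESeq2's Wald test). Of 150 fold changes, 147 kept their direction and 3 reversed, all of Igfbp4: -0.040 with library totals, -0.0097 without OsxCre library 2 and -0.023 without OsxCre;Stat3fl/fl library 2 (range on leaving out libraries -0.023 to 0.035). The count of the 10 genes at an unadjusted p of 0.05, 3, was 1 with the replicate block and 0 to 4 on leaving out single libraries (1 without OsxCre library 2, 0 without OsxCre library 3, 1 without OsxCre;Stat3fl/fl library 2 and 0 without OsxCre;Stat3fl/fl library 3). Over all genes, 2070 of 15600 passed it with the block. On leaving out single libraries, the all-gene count ran from 1998 of 15830 (without OsxCre library 2) to 2592 of 16081 (without OsxCre;Stat3fl/fl library 1). The count of the 10 whose genotypes did not overlap, 2, was 1 with no filter, a setting added for this count after seeing the data, and 2 to 6 on leaving out single libraries (6 without OsxCre library 1 and 4 without OsxCre;Stat3fl/fl library 1). With 2 libraries left in a group, values separate more easily than with 3. The share over all genes was not computed for these settings, so their counts cannot be set against the 23% above. The count over all genes, 196, was 428 with no filter, 539 with DESeq2's Wald test, 1 with the replicate block and 12 to 103 on leaving out single libraries. With library totals it was 114 lower and 112 higher, beside 75 and 121 in the main scaling, and the median log2 fold change of all genes moved to -0.05. With the block, Foxo3 had an adjusted p of 0.136. Same-numbered libraries did not deviate together from their genotype means (mean correlation -0.233), so the numbers were not taken as pairs. The mean of other pairs, 0.114, is tied to that value by the centring within each genotype and is no separate reference. Single other pairs ran from -0.465 (OsxCre library 3 with OsxCre;Stat3fl/fl library 1) to 0.529 (OsxCre library 2 with OsxCre;Stat3fl/fl library 1). With the longest transcript in place of all exons, levels in CPM per kb became 17.7 for Ghr, 36.4 for Igf1, 399 for Igfbp2, 183 for Igfbp3 and 515 for Igfbp4. By mean level, this put Ghr above Irs1, with overlapping ranges, and Igfbp2 above Igfbp5. The causes of these moves were not tested. With 9 to 31 counts per library, depth limits Igf1r most among the 10 genes.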
